A study of Mus musculus with 16 samples.

Results

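The respiratory chain genes were taken as every row of the deposited count table whose symbol names a subunit of complexes I to V (the Nduf, Sdh, Uqcr, Cox4 to Cox8 and Atp5 families and the mitochondrially encoded mRNAs) and whose mean over all livers was at least 1 CPM (counts scaled to the library's total, the usual unit of level in RNA sequencing). Of 99 matching rows among 27446 entries, 94 met this rule: 81 nuclear genes and 13 genes of mitochondrial DNA. The pattern also took in 1 row named as a pseudogene, Cox5b-ps, which the GENCODE annotation lists as protein-coding. Cox8b lay just inside the threshold with a mean of 1.16 CPM, and Cox6b2 just outside it with 0.292 CPM. The CPM of livers and groups given below also use a scaling factor per library (TMM, from edgeR). These factors ran from 0.929 in emodin 6 to 1.16 in emodin 8. The other rows left out were Cox4i2, Cox7b2, Cox8c and a second row named Atp5o.

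Livers came from wild-type C57BL/6 mice, 8 dosed with emodin (400 mg/kg into the stomach for 3 weeks, in 0.5% CMC-Na) and 8 that received CMC-Na without emodin (vehicle). Emodin is an anthraquinone of rhubarb. Both groups had acclimated for 7 days; age and sex are not given in the labels used here. Whole liver was used, so fewer cells of a type and less RNA per cell cannot be told apart. Livers are called by group and number; the labels do not say that each came from its own animal, so the tests measure the spread between these samples.

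The respiratory chain sits in the inner mitochondrial membrane. Complex I takes electrons from NADH and complex II takes them from succinate; both hand them to coenzyme Q, complex III passes them to cytochrome c, and complex IV gives them to oxygen. Complexes I, III and IV pump protons, and complex V, the ATP synthase, uses the gradient to make ATP. Hepatocytes are rich in mitochondria and spend this ATP on gluconeogenesis, urea synthesis and protein export. The mitochondrial genome encodes part of complexes I, III, IV and V and no part of complex II, and its mRNAs are cut from long transcripts that cover nearly the whole circle.

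Respiratory chain mRNA differed little between the groups. None of the 92 members with enough counts for a test passed an adjusted p of 0.05 (edgeR quasi-likelihood test, Benjamini-Hochberg adjustment over all 14308 entries tested), and 8 had an unadjusted p under 0.05. Of all entries tested, 13.2% passed, 7.7% higher and 5.47% lower with emodin, and 29.7% had an unadjusted p under 0.05. DESeq2 called 2 members lower, Atp5g3 and Cox5a, against 17.7% of all entries. The exact rank-sum test called Atp5g3 alone (10.4% of all entries), and limma-voom called 0 members (11.6% of all entries). No member had emodin and vehicle livers that did not overlap, a pattern seen in 1.97% of all entries.

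The precision was enough to bound most changes. For 91 of the 92 members the 95% interval of the fold change lay within 2-fold in either direction, and for 85 it lay within 1.5-fold. Over all entries tested these counts were 11576 and 8074 of 14308. The member outside 2-fold was Cox7a1, a muscle isoform described further on. The median standard error was 0.13 for members and 0.14 for all entries, on the log2 scale.

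**Figure D1:**
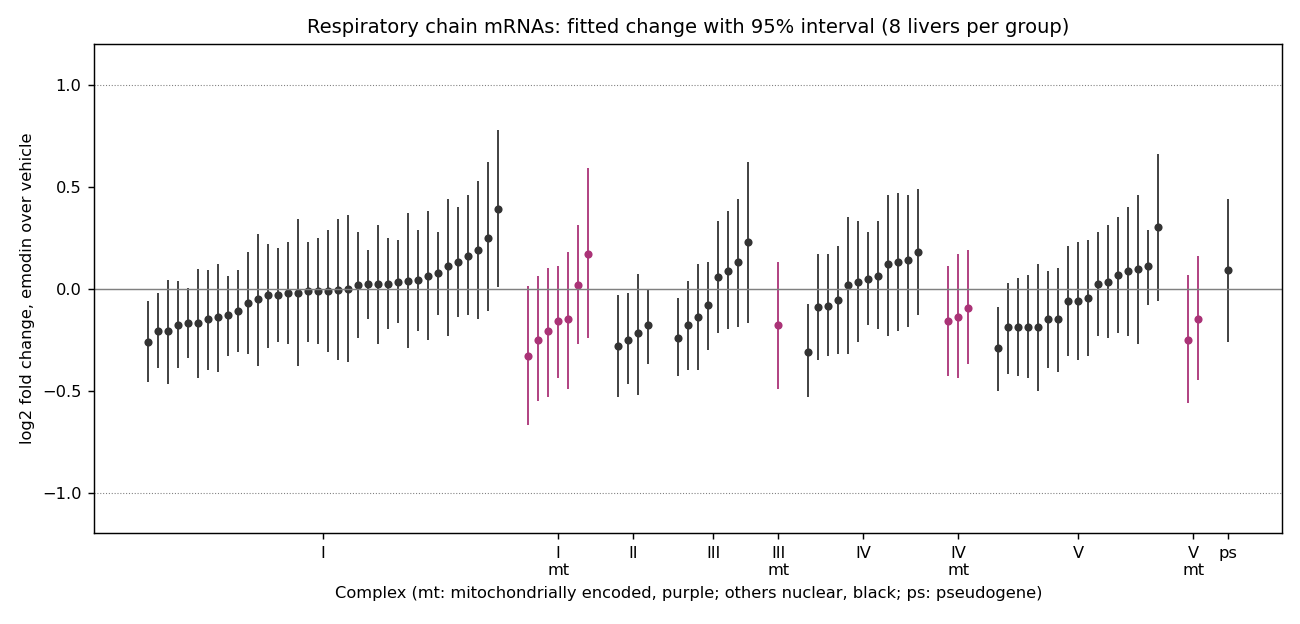
Fitted log2 fold change (y axis, emodin over vehicle) of each tested member, ordered within its complex; points are estimates, lines 95% intervals, dotted lines 2-fold in either direction, ps the pseudogene. Cox7a1 (-1.06, interval from -2.74 to 0.61) is left off for scale, and every interval drawn lies within 2-fold.

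Mitochondrially encoded mRNAs were abundant. The 13 together took 10.5% to 12.5% of all counts in vehicle livers and 8.23% to 12.8% in emodin livers. Livers emodin 5, 8 and 4 had 8.23%, 8.41% and 8.98%, below every vehicle liver, emodin 7 was above every vehicle liver at 12.8%, emodin 1 stood level with the lowest vehicle liver at 10.5%, and emodin 2, 3 and 6 lay within the vehicle range. The 81 nuclear genes together took 0.844% to 1.25% of counts in vehicle livers and 0.753% to 1.13% in emodin livers. The ratio of mitochondrial to nuclear counts ran from 9.22 to 14.1 in vehicle livers and from 9.88 to 13.1 in emodin livers, so emodin livers lay inside the vehicle range.

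**Figure D2:**
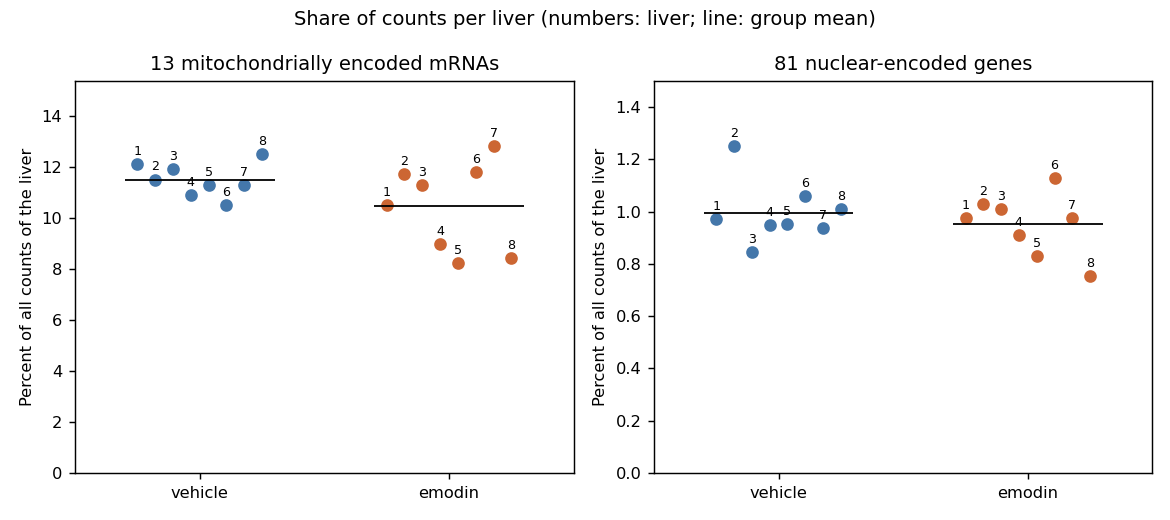
Share of all counts of a liver (y axis, percent) from the 13 mitochondrial mRNAs (left) and the 81 nuclear genes (right), 1 numbered point per liver and a line at the group mean. Emodin 4, 5 and 8 lie below every vehicle liver on the left, and vehicle 2 stands highest on the right with 1.25%.

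Of the 13 mitochondrial mRNAs, 11 had a log2 fold change under 0, with a median of -0.16 against 0.012 for all entries tested; 0 passed the test, and 0 had an unadjusted p under 0.05. The highest level per length was that of mt-Co1, the catalytic core of complex IV that binds the oxygen-reducing site, at 23738 CPM per kilobase in vehicle livers and 21217 in emodin livers. In counts its level was 30984 to 41740.4 CPM in vehicle livers (median 36517) and 24474 to 41174 CPM in emodin livers (median 35044). The groups overlapped, with emodin 8, 4 and 5 below every vehicle liver, and the log2 fold change was -0.16 ± 0.13 (SE, adjusted p = 0.418). The lowest level per length in vehicle livers was that of mt-Nd3, at 2622 CPM per kilobase, so the mRNAs of this one circle spanned a wide range of levels.

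The mitochondrial complex I subunits form the membrane arm that moves protons. The lowest fold change among them was that of mt-Nd4l (chrM:9877-10173, mm10), a small membrane subunit. Its level was 749 to 1309 CPM in vehicle livers (median 1052) and 483 to 1101 CPM in emodin livers (median 836). Emodin 4, 5 and 8 lay below every vehicle liver and the others within their range (log2 fold change -0.33 ± 0.16, adjusted p = 0.184). The subunits mt-Nd5 (-0.25 ± 0.15), mt-Nd4 (-0.21 ± 0.15), mt-Nd6 (-0.16 ± 0.13) and mt-Nd2 (-0.15 ± 0.16) had the same sign, with 95% intervals that crossed 0.

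Against them, mt-Nd3, a core subunit near the coenzyme Q pocket, had a log2 fold change of 0.17 ± 0.20. Its level was 763 to 1334 CPM in vehicle livers (median 877) and 543 to 1472 CPM in emodin livers (median 1050.2). Emodin 2 and 6 were above every vehicle liver and emodin 1, 5 and 8 below, so the emodin group was spread to both sides. The estimate for mt-Nd1, which lines the same pocket, was 0.019 ± 0.14, and its sign turned in 4 of the alternatives given in the closing section.

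Beyond complex I, mt-Cytb, the cytochrome b of complex III, had -0.18 ± 0.15. The complex IV cores mt-Co3 and mt-Co2 had -0.14 ± 0.14 and -0.093 ± 0.13; with array weights the value for mt-Co2 was 0.00087. The complex V subunits mt-Atp8 and mt-Atp6, which belong to the membrane part of the enzyme, had -0.25 ± 0.15 and -0.15 ± 0.14. Their reading frames overlap by 43 bases, those of mt-Nd4l and mt-Nd4 by 7, and mt-Atp6 and mt-Co3 by 1, so counts of these neighbours can share reads. The gene mt-Nd6 lies on the opposite strand to mt-Nd5 with an overlap of 14 bases, and since strand use in counting is not stated, its counts and those of antisense RNA cannot be told apart. Mitochondrial rRNA and tRNA were not analysed here.

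Complex II, succinate dehydrogenase, joins the respiratory chain to the citric acid cycle and is encoded wholly in the nucleus. All 4 of its subunits had lower mean levels with emodin, with a median log2 fold change of -0.23 (0 of 4 passed, 2 with an unadjusted p under 0.05). Sdha, the flavoprotein that oxidises succinate, had 372 to 459.8 CPM in vehicle livers (median 439) and 238 to 452 CPM in emodin livers (median 362). Emodin 2, 4, 5 and 8 lay below every vehicle liver and emodin 1 stayed near the top of the vehicle range. The log2 fold change of Sdha was -0.28 ± 0.12 (adjusted p = 0.123).

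Sdhd, a membrane anchor, was the most even of the 4 in vehicle livers, at 155 to 158 CPM in all but vehicle 2 (176 CPM). In emodin livers it ran from 96.9 to 160.3 CPM (median 139.9), and 5 of the 8 emodin livers lay below every vehicle liver (-0.25 ± 0.11, adjusted p = 0.13). Sdhb, the iron-sulphur subunit, had -0.22 ± 0.14 and Sdhc, the other anchor, -0.18 ± 0.088. Together the 4 genes took 0.0839% to 0.104% of counts in vehicle livers and 0.0622% to 0.0915% in emodin livers, where only emodin 1 was above the lowest vehicle liver. The direction was negative in all 14 alternatives without a left-out liver (median from -0.31 to -0.11).

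Nuclear complex I holds 36 members, of which 0 passed (3 with an unadjusted p under 0.05) and 15 had positive and 21 negative fold changes (median -0.01). The 7 core subunits, which hold the flavin and iron-sulphur clusters or line the coenzyme Q pocket, had a median of -0.11, and the 29 accessory subunits one of -0.0099. With array weights these medians were -0.012 and 0.097, without vehicle 2 and emodin 7 they were -0.071 and 0.062, and with the library total as a covariate -0.21 and -0.23; the accessory median was 0.0012 with total counts as the scaling. Ndufv1, the core subunit that binds NADH through a flavin, had 98.1 to 133 CPM in vehicle livers (median 109) and 70.6 to 108 CPM in emodin livers (median 95.7). Emodin 2, 4, 5 and 8 lay below every vehicle liver, and vehicle 2 stood above the other vehicle livers (-0.26 ± 0.095, adjusted p = 0.0791; called without emodin 7, adjusted p = 0.0468).

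Ndufs1, a further core subunit of the electron-carrying arm, had -0.21 ± 0.12. Ndufa9, an accessory subunit at the junction of both arms, had 110.4 ± 8.86 CPM in vehicle and 95.6 ± 13.6 CPM in emodin livers (mean ± SD, n = 8 in each group; -0.21 ± 0.088, adjusted p = 0.123).

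The accessory subunit Ndufa3 had the largest difference upwards of all members. Its level was 38.9 to 60.8 CPM in vehicle livers (median 46.6) and 33.3 to 93.6 CPM in emodin livers (median 60.2). Emodin 2, 3, 4 and 6 were above every vehicle liver while emodin 8 was below all of them (0.39 ± 0.18, adjusted p = 0.162). With log2 library total as a covariate the value was -0.016. Ndufb1 (0.25 ± 0.17) and Ndufa13 (0.16 ± 0.14), also accessory by name, each had 4 emodin livers above every vehicle liver and 1 below. The GENCODE annotation lists the row named Ndufb1 as a long noncoding RNA, so its counts may not be those of the subunit mRNA.

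In complex III, 0 of 8 nuclear members passed and 1 had an unadjusted p under 0.05 (4 positive and 4 negative, median -0.013). Uqcrfs1, the Rieske iron-sulphur protein that takes electrons from coenzyme Q, had 154 to 205 CPM in vehicle livers (median 163) and 112 to 164 CPM in emodin livers (median 146). With 6 of 8 emodin livers below every vehicle liver it had the most of any member (-0.24 ± 0.093, adjusted p = 0.0944). The core protein Uqcrc2 had -0.18 ± 0.10, and the small subunit Uqcr11 had 0.23 ± 0.19, which became -0.20 with the library total as a covariate.

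Of the 15 nuclear complex IV members 13 could be tested, 0 passed and 1 had an unadjusted p under 0.05 (8 positive and 5 negative, median 0.035). Cox5a (chr9:57521274-57532426), a subunit on the matrix side that can bind thyroid hormone metabolites, had 86.5 to 138 CPM in vehicle livers (median 98.5) and 59.6 to 98.4 CPM in emodin livers (median 85.1). Emodin 1, 4, 5 and 8 lay below every vehicle liver, vehicle 2 stood alone at the top, and the log2 fold change was -0.31 ± 0.11 (adjusted p = 0.0708; DESeq2 adjusted p = 0.0429). Cox5b, the zinc-binding subunit beside it in the enzyme, had the opposite sign (106 ± 15.9 against 120.2 ± 31.7 CPM, 0.18 ± 0.15). Its pseudogene Cox5b-ps, at 9.82 ± 1.72 and 10.4 ± 2.96 CPM, could take reads of the parent gene, so both values are uncertain to that extent.

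In complex V, 0 of 17 nuclear members passed and 1 had an unadjusted p under 0.05 (7 positive and 10 negative, median -0.06), and the signs differed between the parts of the enzyme. The 5 members of the catalytic F1 head had a median of -0.19 (4 negative) and the 4 of the peripheral stalk one of -0.11 (4 negative), while the 5 small membrane subunits without a catalytic role had 0.085 (5 positive). The head subunits Atp5a1 and Atp5b, which form the ring that makes ATP, had -0.19 ± 0.11 and -0.15 ± 0.12, and Atp5pb of the stalk had -0.19 ± 0.11. Atp5md, a small membrane subunit, had 87.4 ± 14.1 CPM in vehicle and 108 ± 34.7 CPM in emodin livers (0.30 ± 0.17, adjusted p = 0.252). With the library total as a covariate the medians were -0.25 for the head, -0.31 for the stalk and -0.23 for the small subunits, and with array weights -0.047, 0.01 and 0.2. The difference between these parts was not tested.

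Atp5g3 had the smallest p of all members. It is 1 of 3 genes, with Atp5g1 and Atp5g2, for the c subunit whose ring turns in the membrane, and the mature protein is the same from all of them. Atp5g3 (chr2:73908447-73911326) had 243 to 352 CPM in vehicle livers (median 282) and 182 to 278 CPM in emodin livers (median 240.2). Emodin 1, 2, 4, 5 and 8 lay below every vehicle liver and the other 3 within their range. The log2 fold change was -0.29 ± 0.096 (adjusted p = 0.0512 by edgeR, 0.0188 by DESeq2 and 0.0341 by the exact rank-sum test), a ratio of 0.816.

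The edgeR call for Atp5g3 turned on single livers: the adjusted p was 0.0281 without emodin 7 and 0.0497 without vehicle 3, and it ranged up to 0.105 over the alternatives. The paralogs differed from it in sign or size, with -0.06 ± 0.14 for Atp5g1 and 0.11 ± 0.089 for Atp5g2; that difference was not tested. Per kilobase of merged exon, Atp5g3 was the most abundant of the 3 in vehicle livers, at 131 CPM per kilobase against 42.0 for Atp5g2 and 18.1 for Atp5g1. In CPM the vehicle means were 286 for Atp5g3, 70.3 for Atp5g2 and 88.9 for Atp5g1. The order of Atp5g1 and Atp5g2 thus depended on the exon length used.

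**Figure D3:**
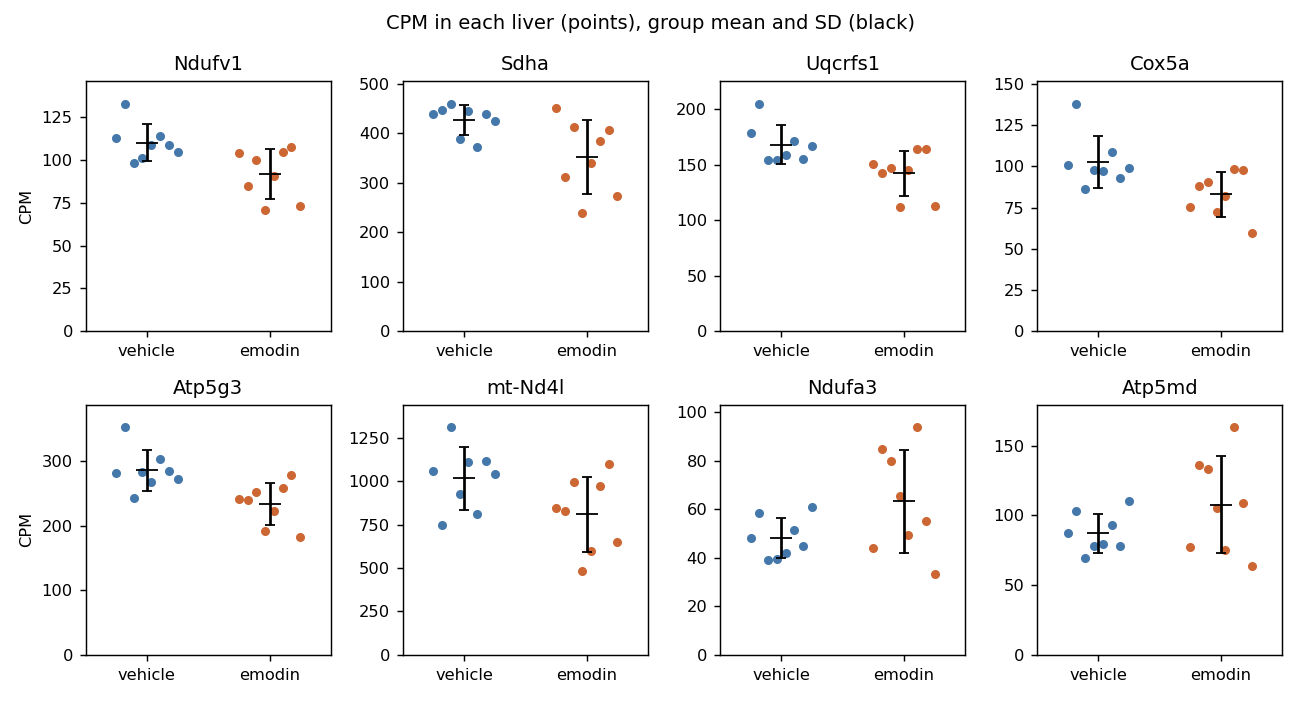
CPM (y axis, from 0) of 8 members in each liver, vehicle livers in blue and emodin livers in orange in order of liver number, with the group mean and SD in black. The groups overlap for every member shown; Ndufa3 and Atp5md have the higher mean with emodin and the other 6 the lower one.

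The emodin livers were not alike. Members were counted, liver by liver, as below or above all 8 vehicle livers. In emodin 8, 75 of 79 tested nuclear members (94.9%) and 13 of 13 mitochondrial ones lay below every vehicle liver, against 26% of all entries tested. The nuclear members not below were Cox7a2, Ndufa12, Ndufa8 and Ndufb1. The median log2 deviation from the vehicle mean in emodin 8 was -0.63 for nuclear and -0.63 for mitochondrial members. Vehicle livers differed as well, and no such counts were made for them. Their medians ran from -0.24 (vehicle 3) to 0.30 (vehicle 2) for nuclear members. For mitochondrial members they ran from -0.15 (vehicle 6) to 0.19 (vehicle 8). The nuclear medians of emodin 6 (0.33) and emodin 5 (-0.23) were near those of vehicle 2 and vehicle 3. The mitochondrial medians of emodin 4 and 5 were -0.53 and -0.54.

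Emodin 5 had 35 nuclear and 13 mitochondrial members below every vehicle liver (all entries 23.9%), and emodin 4 had 32 and 12 (all entries 25.7%). Emodin 6 went the other way, with 43 nuclear members (54.4%) above every vehicle liver against 18.6% of all entries, and 3 mitochondrial ones. Emodin 2 had 32.9% of nuclear members above (all entries 23.9%) and 13.9% below (all entries 21.3%). Emodin 3 had 17.7% of nuclear members above (all entries 15.2%) and 1.27% below (all entries 14.2%). Emodin 1 had 15.2% of nuclear members below (all entries 13.4%) and 2.53% above (all entries 14.1%). In emodin 1, 6 of 13 mitochondrial mRNAs (46.2%) also lay below every vehicle liver. In emodin 7, 6 of 13 mitochondrial mRNAs (46.2%) and 2.53% of nuclear members were above every vehicle liver, against 13.4% of all entries.

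With total counts in place of the scaling factors, emodin 8 had 53 nuclear members below (all entries 16%), emodin 4 had 21 (16.7%) and emodin 6 had 24 above (11% of all entries). In the other scalings run, the nuclear counts for emodin 4, 5, 6 and 8 stayed within 1.5 times of those first given. The mitochondrial counts for emodin 4, 5 and 8 did so too, and that for emodin 6 was not rerun. Without vehicle 2 and emodin 7, 63 nuclear members were above every remaining vehicle liver in emodin 6 (20.8% of all entries). The groups of 8 thus held livers far apart in both directions, and the array weights of limma were lowest for emodin 8, 4 and 5, at 0.276, 0.376 and 0.455.

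Within a liver the complexes did not move as 1 block. In emodin 2 the median log2 deviation of nuclear members was -0.27 for complex II and -0.17 for the F1 head, against 0.27 for complex IV and 0.43 for the small membrane subunits of complex V. In emodin 4 complex II stood at -0.72 with 4 of 4 members below every vehicle liver, the F1 head at -0.53 and complex IV at -0.10. In emodin 6 complex II stood at -0.025 with 0 of 4 members above every vehicle liver, while complex IV stood at 0.48 with 9 of 13 above. Emodin 1 had the other order, 0.031 for complex II and -0.17 for complex IV. In emodin 8 the medians lay close together, from -0.71 for complex IV to -0.57 for complex III.

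**Figure D4:**
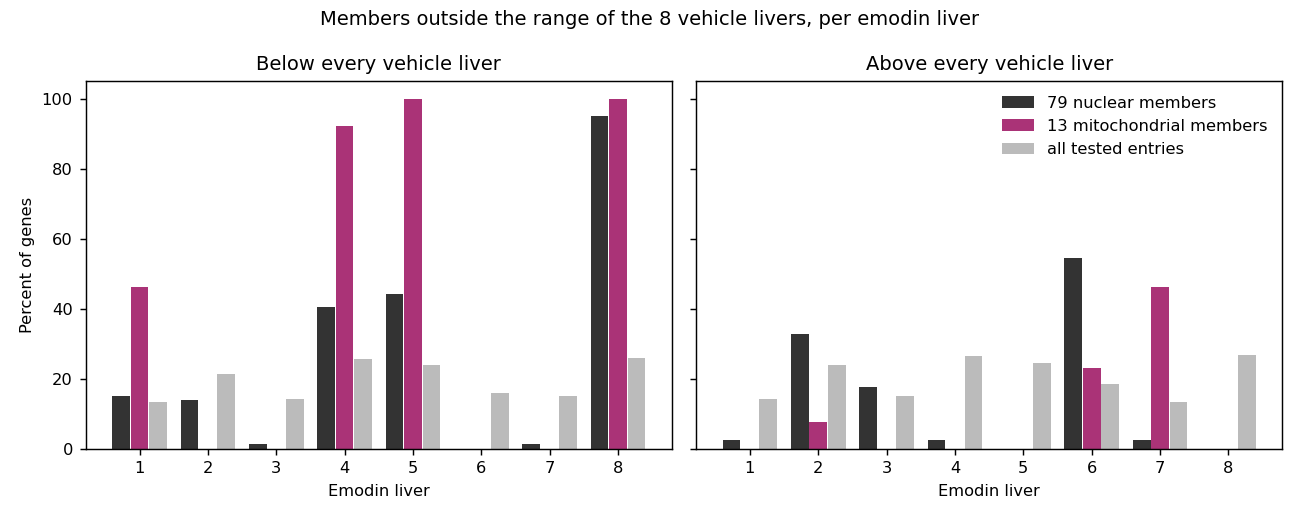
Percent of nuclear members (black), mitochondrial members (purple) and all tested entries (grey) that lay below (left) or above (right) all 8 vehicle livers, for each emodin liver. Emodin 8 has 94.9% of nuclear members below and emodin 6 has 54.4% above.

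Hepatocyte markers were high in every liver. The summed level of the 7 hepatocyte markers was 93937 to 123033 CPM in vehicle livers and 54483 to 100121 CPM in emodin livers, and Alb, which encodes albumin, made up 70.1% to 81.7% of it. Of the 7, Alb fell (edgeR adjusted p = 0.0309) and 0 rose. Without Alb the sum of the other 6 was 19895 to 23218 CPM in vehicle livers and 16267 to 22141 CPM in emodin livers, with emodin 4 (16267), 8 (17654) and 2 (19115) below every vehicle liver and emodin 5 (21922) within their range. The 4 cholangiocyte markers summed to 4.20 to 8.54 CPM in vehicle livers and to 22.5, 19 and 10 CPM in emodin 8, 4 and 2 (0 of 4 passed), most of it Sox9 (20.1, 14.2 and 8.18 CPM). Of 5 endothelial markers, Kdr fell (edgeR adjusted p = 0.00918), while Lyve1 and Clec4g had positive estimates (0.42 and 0.25) and the sums overlapped, at 103 to 153 CPM in vehicle and 96.3 to 152 CPM in emodin livers. Of the tested markers of macrophages, neutrophils, stellate cells, lymphocytes, red cells and pancreas 0 passed. Counts sufficed for a test in 3 of 6 neutrophil, 5 of 6 red cell and 1 of 4 pancreas markers. The macrophage marker Cd68 had 27.9, 21.6 and 14.8 CPM in emodin 8, 4 and 5, against at most 14.6 CPM in vehicle livers (edgeR adjusted p = 0.101). The sums of the 6 macrophage markers overlapped, at 103 to 416 CPM in vehicle and 153 to 392 CPM in emodin livers. The part of these differences in the levels of the members was not tested.

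Library depth moved with the groups as well, at 28.7 to 38.6 M counts (M, mega) in vehicle livers and 28.3 to 48.2 M in emodin livers. With log2 library total as a covariate, the median of the nuclear members was -0.23 and that of the mitochondrial ones -0.37. In that fit Cox5a (-0.40, adjusted p = 0.0443) and Ndufb8 (-0.40, adjusted p = 0.0461) were called lower, 2 of 92 members against 11% of all entries.

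Nuclear members with a longer merged exon length had lower fold changes. This length joins all annotated exons of a gene, rare ones included, so it can exceed that of the main transcript. The Spearman correlation of log2 fold change with exon length was -0.412 over 79 nuclear members and -0.141 over 12842 entries with a known length. With mean CPM in place of length it was -0.364 over these members and 0.0182 over these entries. All points share the same 16 libraries. The shortest 28 members (390 to 1217 bases) had a median of 0.04 and 18 positive values, the 24 in the middle -0.014, and the longest 27 (2147 to 8086 bases) -0.14 and 21 negative values. All entries of the same lengths had medians of 0.12, 0.077 and 0.026. With the library total as a covariate the medians of the members were -0.21, -0.27 and -0.26, so the order by length was not present in that fit; with array weights they were 0.12, 0.081 and -0.012. The part of length, level or RNA quality in the values by complex was not tested.

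Several complex IV subunits exist as a common form and a form of heart and skeletal muscle. The common forms were present in every liver: Cox6a1 at 117 to 153 CPM in vehicle and 76.1 to 217 CPM in emodin livers, and Cox8a at 89.5 to 127 and 59.2 to 173 CPM. Cox4i1, the largest nuclear subunit, had 278 ± 37.8 and 262 ± 51.6 CPM. Cox6b1, on the outer face, had 159 ± 19.6 and 149.6 ± 30.8 CPM, and Cox7a2 had 102 ± 14.3 and 106 ± 23.4 CPM. Cox7a2l, known as a factor that joins complexes III and IV, had 77.2 ± 5.28 and 79.8 ± 15.5 CPM. The fold changes of these 6 lay between -0.088 and 0.13, and none passed.

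The muscle forms were concentrated in vehicle 2 and emodin 7. Cox6a2 had 46.7 CPM in vehicle 2 and 12.5 CPM in emodin 7, and at most 0.229 CPM in the other livers. Cox8b had 14.9 and 3.15 CPM there and at most 0.0456 CPM elsewhere. Both are members through these livers alone, and both failed the filter on low counts, so neither was tested. Cox7a1 had 16.2 CPM in vehicle 2, 5.31 CPM in emodin 7 and 0.229 to 1.5 CPM in the other 14 livers. Its estimate of -1.06 ± 0.79 (adjusted p = 0.391) became 0.45 without vehicle 2 and 0.46 in DESeq2.

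Markers of skeletal muscle appeared in the same livers. The sum of the 8 markers of striated muscle and brown fat was 2332 CPM in vehicle 2, 668 CPM in emodin 7 and at most 0.178 CPM in the others. Acta1, skeletal muscle actin, had 1000.2 and 243 CPM, and Ckm, muscle creatine kinase, had 448 and 117 CPM. Ucp1, the defining gene of brown fat, was at 0 in all 16 livers. Vehicle 2 also had the highest vehicle level of Cox5a, Ndufv1, Sdhd, Sdhb and Atp5g3. Without vehicle 2 and emodin 7, 1 member, Atp5g3, was called lower (-0.29, adjusted p = 0.0492), against 14.2% of all entries.

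**Figure D5:**
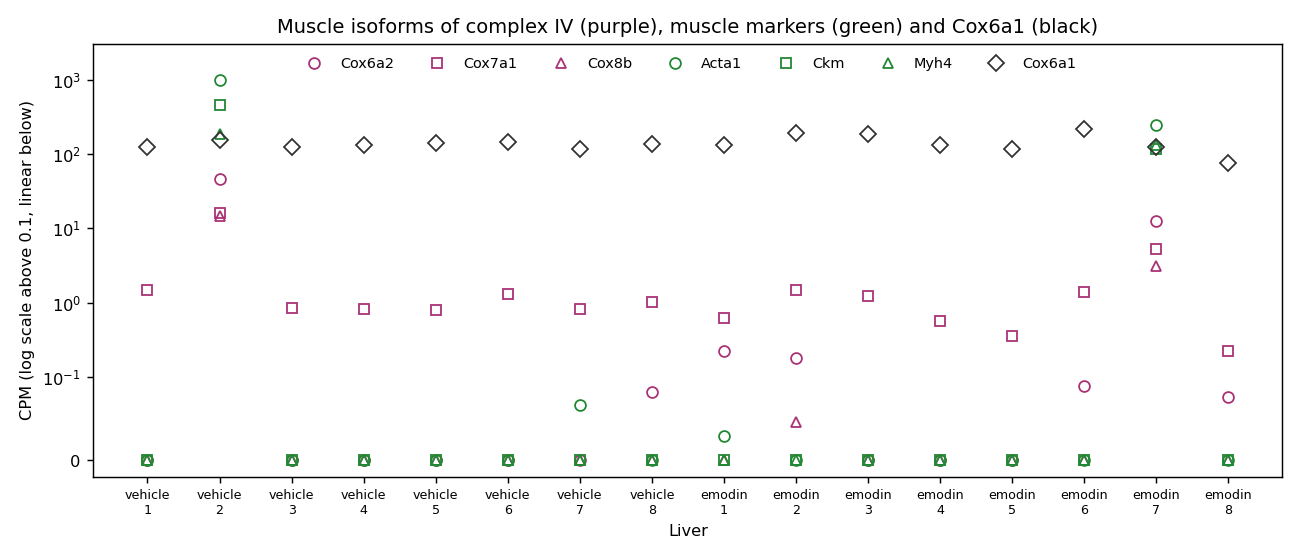
CPM (y axis, log scale above 0.1 and linear below) of the muscle isoforms Cox6a2, Cox7a1 and Cox8b, of 3 muscle markers and of the common isoform Cox6a1 in each of 16 livers. The muscle genes stand high in vehicle 2 and emodin 7 alone, while Cox6a1 lies between 76.1 and 217 CPM in all livers.

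Promoters of respiratory chain genes are known for binding sites of NRF1, of ETS factors such as GABP and of YY1. RefSeq promoters (GRCm38.p6, 250 bases before to 50 after the start) were found for 67 of the 81 nuclear members. On either strand, the NRF1 core GCGCATG was in 13 of them (19.4%, against 4.04% of 27025 promoters), the ETS core CCGGAAG in 16 (23.9% against 9.12%) and the YY1 core AAGATGG in 10 (14.9% against 6.48%). Matches of the 3 words were counted separately even where they touched, and 32 promoters (47.8%, against 17.9%) held at least 1. The median GC content was 58.3% in members and 52.7% in all promoters, and the median number of CG dinucleotides 19 and 7. Members with and without a word had similar medians of log2 fold change: 0.035 and -0.023 for NRF1, -0.037 and -0.01 for ETS, and 0.031 and -0.017 for YY1.

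Promoters of 4 of them are shown: Cox6a1, a common form of a complex IV subunit, high in all livers; Cox8b, the muscle form of another complex IV subunit, above 1 CPM in 2 livers; and the c subunit paralogs Atp5g2 and Atp5g3, with estimates of opposite sign. All are on the minus strand and are written 5′ to 3′ in the direction of the gene: Cox6a1 at chr5:115348909-115349208, Cox8b at chr7:140900397-140900696, Atp5g2 at chr15:102670998-102671297 and Atp5g3 at chr2:73911277-73911576. Capitals mark the words found, on either strand. In Cox6a1 and Atp5g2 the NRF1 word occurs on both strands at 1 place, and Cox6a1 holds the ETS core in reverse (CTTCCGG). Cox8b and Atp5g3 hold none of the 3 words in this window. Cox8b has 2 CG dinucleotides there, against 32 in Cox6a1, 21 in Atp5g3 and 20 in Atp5g2.
Cox6a1: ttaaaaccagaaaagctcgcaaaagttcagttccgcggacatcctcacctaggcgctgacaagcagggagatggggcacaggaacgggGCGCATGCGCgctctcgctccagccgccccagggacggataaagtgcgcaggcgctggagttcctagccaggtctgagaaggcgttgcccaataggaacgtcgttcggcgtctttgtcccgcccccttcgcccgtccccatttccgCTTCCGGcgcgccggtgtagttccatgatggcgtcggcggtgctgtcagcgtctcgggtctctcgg
Cox8b: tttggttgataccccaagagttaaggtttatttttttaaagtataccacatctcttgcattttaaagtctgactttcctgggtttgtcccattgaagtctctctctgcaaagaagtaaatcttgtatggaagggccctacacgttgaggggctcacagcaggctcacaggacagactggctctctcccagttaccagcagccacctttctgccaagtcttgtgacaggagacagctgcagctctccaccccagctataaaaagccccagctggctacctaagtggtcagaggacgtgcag
Atp5g2: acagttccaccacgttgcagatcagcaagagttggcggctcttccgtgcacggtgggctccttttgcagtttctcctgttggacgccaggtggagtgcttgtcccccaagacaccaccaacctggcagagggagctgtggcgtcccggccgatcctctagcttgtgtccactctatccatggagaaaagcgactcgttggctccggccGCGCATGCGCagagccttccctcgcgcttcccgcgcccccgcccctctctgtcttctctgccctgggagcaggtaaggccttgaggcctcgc
Atp5g3: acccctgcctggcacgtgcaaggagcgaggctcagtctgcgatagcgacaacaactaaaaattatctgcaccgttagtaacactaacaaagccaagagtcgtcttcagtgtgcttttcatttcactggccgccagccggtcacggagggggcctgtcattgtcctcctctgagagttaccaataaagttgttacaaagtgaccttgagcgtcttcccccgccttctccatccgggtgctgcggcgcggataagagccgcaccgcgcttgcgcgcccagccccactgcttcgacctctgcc

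Coenzyme Q is the carrier between complexes I or II and III. Around the chain, the list of genes that make coenzyme Q or feed electrons into it held the largest change that passed the test. This list and those that follow were chosen with earlier results of these data known, so their shares are descriptions. Of 19 tested genes for coenzyme Q synthesis or for enzymes that feed electrons into it, 4 fell (21.1%, against 5.47% of all entries) and 0 rose (median -0.061). Coq8a, an atypical kinase needed for coenzyme Q synthesis, fell 2.25-fold, from 144 to 276 CPM in vehicle livers to 33.6 to 129 CPM in emodin livers (193 ± 42.9 and 85.9 ± 33.5; log2 fold change -1.17 ± 0.24, edgeR adjusted p = 0.00641). All 8 emodin livers lay below every vehicle liver. Etfa, which carries electrons from fatty acid oxidation, fell from 306 ± 14.4 to 231 ± 39.8 CPM (-0.41 ± 0.099, edgeR adjusted p = 0.0139), also with 8 of 8 below. Pdss2, of the synthesis of the coenzyme Q tail, and Gpd2, the glycerol phosphate dehydrogenase of the inner membrane, fell by 0.40 and 0.45 on the log2 scale. Coq8a and Etfa passed in every alternative, and Pdss2 had an adjusted p of 0.0639 with the library total as a covariate. The call of Gpd2 (edgeR adjusted p = 0.0229) was not followed through the alternatives.

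Among 30 tested genes for mitochondrial DNA replication and transcript handling, 6 rose (20%, against 7.7% of all entries) and 1 fell (3.33% against 5.47%; median 0.031). Tbrg4, an RNA-binding protein of the FASTK family, rose from 20.2 ± 0.868 to 23.6 ± 1.66 CPM, with all 8 emodin livers above every vehicle liver (0.23 ± 0.055, edgeR adjusted p = 0.0137). Polrmt, the polymerase that transcribes mitochondrial DNA, rose from 10.8 ± 1.40 to 13.8 ± 1.23 CPM (0.35 ± 0.086, edgeR adjusted p = 0.0143) and passed in every alternative. The elongation factor Tefm, the RNA chaperone Slirp, Fastkd3 and Tfb1m also rose, by 0.21 to 0.48 on the log2 scale. In that order their edgeR adjusted p were 0.0481, 0.0411, 0.0343 and 0.0324. The calls of Tefm, Slirp and Fastkd3 were not followed through the alternatives. The call for Tfb1m was lost without emodin 1 or 4 or without vehicle 2, 4, 5, 6 or 7, each alone (adjusted p up to 0.0646). It was also lost with the library total as a covariate (0.137), in the exact rank-sum test (0.056) and without vehicle 2 and emodin 7 (0.0582). Tfam, which packages mitochondrial DNA, fell from 42.2 ± 2.67 to 37.0 ± 2.92 CPM (-0.19 ± 0.061, edgeR adjusted p = 0.0471).

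Of 15 tested regulators of mitochondrial biogenesis, 3 fell (20%, against 5.47% of all entries) and 0 rose (median -0.11): Tfam again, and Gabpa and Gabpb2, subunits of the ETS factor GABP. Gabpa fell from 53.3 ± 5.33 to 43.4 ± 7.08 CPM and Gabpb2 from 32.0 ± 3 to 27.2 ± 2.80 CPM (edgeR adjusted p = 0.0488 and 0.044). These 3 calls lay close to the threshold: leaving out any 1 of 13 livers ended those of Tfam and Gabpa, and any 1 of 12 that of Gabpb2 (adjusted p up to 0.102, 0.107 and 0.0965). Of 13 alternatives with other settings, 1 of them without vehicle 2 and emodin 7, 5 ended the call of Tfam, 3 that of Gabpa and 4 that of Gabpb2, with adjusted p up to 0.144, 0.211 and 0.123, each with the library total as a covariate.

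Assembly factors, which build the complexes without staying in them, gave calls at a share near that of all entries. Of 16 for complex I, 1 fell (6.25%, against 5.47%; median 0.026): Acad9, from 31.8 ± 2.40 to 26.7 ± 2.82 CPM (edgeR adjusted p = 0.0285, lost when any 1 of 9 livers was left out, up to 0.0664, with total counts as the scaling, 0.12, with no filter on low counts, 0.0518, and with the library total as a covariate, 0.11). Of 34 tested for complexes II to V, 2 rose (5.88%, against 7.7%; median 0.047). Sdhaf1, which helps to insert iron-sulphur clusters into complex II, rose from 6.63 ± 1.15 to 9.31 ± 1.48 CPM (0.49 ± 0.12, edgeR adjusted p = 0.015; 0.111 with the library total as a covariate). Coa6, a copper factor of complex IV, rose from 13.3 ± 2.35 to 17.8 ± 2.74 CPM (edgeR adjusted p = 0.0227; 0.0502 without emodin 2 and 0.135 with that covariate). The complex II subunits that Sdhaf1 serves had the negative estimates given above.

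Of 78 mitochondrial ribosomal proteins, which translate the 13 mitochondrial mRNAs, 1 rose (1.28%, against 7.7% of all entries), Mrps18b, from 29.6 ± 1.61 to 41.3 ± 9.23 CPM (edgeR adjusted p = 0.0114), and 54 had positive estimates (median 0.068). In the citric acid cycle outside complex II, 1 of 14 rose (7.14%, near the 7.7%), Fh1, the fumarase that acts on the product of complex II, from 163 ± 15.6 to 220.1 ± 38.9 CPM (0.44 ± 0.10, edgeR adjusted p = 0.0118). The list had a median of -0.13 and 11 negative estimates. Mrps18b and Fh1 passed in every alternative.

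Of 15 mitochondrial chaperones and proteases, 1 fell (6.67%, near the 5.47% of all entries), Clpx, the unfoldase of the Clp protease, from 99.0 ± 16.4 to 71.2 ± 17.1 CPM (edgeR adjusted p = 0.0295; median of the list -0.049). Its call was lost without emodin 2, 3 or 6 or vehicle 1, 3 or 5, each alone (up to 0.0682), with total counts as the scaling (0.0668) and with the library total as a covariate (-0.28 in place of -0.48, adjusted p = 0.159). Of 15 genes for antioxidants, carriers and uncoupling, 1 fell (6.67% likewise), Glrx2, a mitochondrial glutaredoxin, from 18.2 ± 1.94 to 15.5 ± 1.35 CPM (edgeR adjusted p = 0.0462; median -0.017; lost when any 1 of 12 livers was left out, up to 0.0848, and in 6 of 13 other alternatives, up to 0.0918 with total counts as the scaling). Of 5 tested subunits with names outside the family pattern, 0 passed; the one with the smallest p was Atpif1, the inhibitor of complex V (0.22 ± 0.12, adjusted p = 0.232).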

How the data were processed

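Per the labels' protocols, libraries were made from 1 µg of total liver RNA. Values in the deposited table were taken as the authors' estimated counts, although its name speaks of FPKM: 0 were fractional and column totals differed. In each column 632 to 751 entries stood at 2 but 161 to 207 at 1, a pattern under which 1 may not stand for a single read, and whether the authors scaled the values is not given in the sources used here. HISAT2, HTSeq 0.6.1, cutadapt 1.9.1, Cufflinks 2.2.1, SAMtools 0.1.19 and the mm10 build are named, with no roles, per the submitters' processing notes; the annotation, the strand setting and the handling of reads shared between paralogs are not given in the sources used here. All 16 columns were used (0 left aside), with 28.3 to 48.2 M counts each; counts carry no molecular identifiers, so the spread between livers was used as the error.

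The test was that of edgeR 4.0.16 under R 4.3.3 (filterByExpr, TMM, robust quasi-likelihood F test, group as the single term), with Benjamini-Hochberg adjustment over 14308 entries; adjusted p under 0.05 was called. The fitting steps were tested on simulated data. CPM are TMM-scaled except in the member threshold. Log2 fold changes are emodin over vehicle, and the standard error is the absolute log2 fold change over the square root of F. Alternatives used DESeq2 1.42.0, limma 3.58.1 and an exact two-sided rank-sum test. Gene positions and exon lengths (all exons merged) are from GENCODE M21; levels per kilobase use these lengths and understate genes with long rare exons. Promoters are from RefSeq. The planned comparison of isoform proteins was not run.

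Members and lists were chosen with earlier results of these data known. Named members are the 13 mitochondrial mRNAs, all of complex II, per other complex the 2 with the smallest p and the 1 with the largest opposite change, the markers Atp5g3, Cox5a and mt-Nd4l, and the isoform families. Ndufb1, Ndufa13, Ndufs1, Ndufb8, Atp5a1, Atp5b, and Tefm, Slirp, Fastkd3 and Gpd2 were added after their values were seen. From the other lists up to 3 called genes were named, or the one with the smallest p.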

Additional observations from a re-analysis of the deposited data

Results flagged for a closer look

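Each member named by the rule above was checked within each group of 8 livers for a single outlying liver. The mark was a gap to its neighbour over 0.526 of the group's range. Cox5b-ps and the members added after their values were seen (Ndufb1, Ndufa13, Ndufs1, Ndufb8, Atp5a1 and Atp5b) were not checked. Of these, Atp5a1 had 871 CPM in vehicle 2, where the next vehicle liver had 774. Of 78 such checks 11 were met; chance alone meets about 1 in 20.

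Of these, 6 concern the muscle isoforms. Cox6a2 stood apart in vehicle 2 (46.7 CPM) and in emodin 7 (12.5 CPM), Cox8b in the same livers (14.9 and 3.15 CPM), and Cox7a1 likewise (16.2 and 5.31 CPM). Another 3 concern vehicle 2: Cox5a at 138 CPM (the next vehicle liver had 109), Ndufv1 at 133 CPM (next 114) and Sdhd at 176 CPM (next 158). The other 2 concern vehicle 8, with mt-Nd1 at 10494 CPM (next 8988) and mt-Nd3 at 1334 CPM (next 949).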

How the results depend on the processing

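No alternative called a member higher, and no mitochondrial, complex II or complex III member was called lower in any. Members called lower, all nuclear, numbered 0 in the edgeR fit as reported. They numbered 1 (Atp5g3, in complex V) with DESeq2 size factors (13.1% of all entries called) and with total counts as scaling (11.5%). The same held in the exact rank-sum test (10.4%), without entries lacking an Ensembl ID (13.3%), and without vehicle 2 and emodin 7 (14.2%). Members called lower numbered 2 with DESeq2 (1 in complex IV, 1 in complex V, against 17.7% of all entries). With the library total as a covariate they also numbered 2 (1 in complex I, 1 in complex IV, against 11% of all entries). Leaving out each liver in turn gave 0 to 3 members lower in total and 0 to 1 each in complexes I, IV and V. There were 3 without emodin 7 (15.3% of all entries called) and 1 without vehicle 3 (9.26%).

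The medians of the nuclear members and of complexes I, III and V turned positive with array weights (0.094, 0.097, 0.11 and 0.068), the first 3 also without vehicle 2 and emodin 7 (0.03, 0.054 and 0.032), and that of complex IV turned negative with the library total as a covariate (-0.22). Those of the mitochondrial members (-0.37 to -0.068) and of complex II stayed negative. Removing single livers gave -0.074 to 0.051 for the nuclear and -0.21 to -0.11 for the mitochondrial median.

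Signs of single members named by the rule above turned as follows, and those added later were not followed. With the library total as a covariate: mt-Nd1 -0.17, mt-Nd3 -0.22, Ndufa3 -0.016, Uqcr11 -0.20, Cox5b -0.12, Atp5md -0.11, Cox6a1 -0.20, Cox7a2 -0.19, Cox7a2l -0.03, Cox8a -0.20 and Atp5g2 -0.045. With array weights: mt-Co2 0.00087, Cox4i1 0.014, Cox6b1 0.023 and Atp5g1 0.078. The value of mt-Nd1 was -0.014 with limma-voom, -0.011 with the replicate block and -0.056 without vehicle 2 and emodin 7; that of Cox7a1 was 0.46 with DESeq2. Single livers left out in turn gave -0.046 to 0.088 for mt-Nd1, -1.78 to 0.45 for Cox7a1, -0.0016 to 0.11 for Cox7a2 and -0.14 to 0.018 for Atp5g1. With total counts as the scaling, 21 nuclear members lay below every vehicle liver in emodin 4 and 24 above in emodin 6. The causes were not tested.

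The labels state no pairing of livers by replicate number. Of 8 same-numbered pairs, 2 had deviations that correlated above 0.1 (range -0.161 to 0.267). Of 8 emodin livers, 2 correlated best with their own number. These correlations cannot settle whether the numbers pair the livers. With the replicate block 0 members and 8.83% of all entries were called, and the calls for Tbrg4 (adjusted p = 0.0556), Clpx (0.0703), Gabpb2 (0.0756) and Glrx2 (0.0595) were lost. The fit without vehicle 2 and emodin 7 was added after seeing the data.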
